A study of Mus musculus with 8 samples.

Results

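The genes described here are the interferon-linked members of the PARP family, Parp9, Parp10, Parp11, Parp12 and Parp14, with Dtx3l, the ubiquitin ligase partner of PARP9. Parp1 and Parp2, which are not known as interferon-induced genes, were added for contrast. They were taken by symbol, which gives 8 genes of the 55487 in the count table. All 8 passed the filter on low counts.

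The study sequenced RNA of whole tumors grown from Lewis lung carcinoma (LLC) cells, a mouse lung cancer line, which were injected under the skin of female C57BL/6J mice. Tumors were taken at day 12. The mice were bought at 6 to 8 weeks of age. Of the 8 tumors, 4 grew from wild-type LLC cells and 4 from cells labelled Ago2 knock-out (ΔAgo2), which lack the argonaute that carries out RNA interference. ΔAgo2 cells were made with a lentiviral CRISPR guide, puromycin selection and single-cell sorting, and the study names 1 clone as the one engrafted, so that the effect of the knock-out and the features of that clone cannot be told apart. The mice themselves had an intact Ago2 gene in both groups. The tumors were lysed with the host cells inside them, so that fewer cells of a type and less RNA per cell cannot be told apart. All libraries carry the same batch label.

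PARP enzymes take ADP-ribose from NAD and attach it to proteins or nucleic acids. PARP1 and PARP2 build chains of it at DNA breaks, where they recruit the repair machinery. Most of the interferon-linked members attach single units instead. Their genes are switched on by the transcription factors that act below interferon receptors, and several of the proteins restrict viruses. PARP9 and DTX3L act as a complex with both ADP-ribosylation and ubiquitin ligase activity, and the complex and PARP14 have both been tied to the response of macrophages to interferon.

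Total counts ran from 7903288 in wild-type tumor 4 to 268564145 in ΔAgo2 tumor 4. A count of 0 would allow up to 0.43 CPM (counts scaled to a common library total of 1e+06, after TMM normalization) in the shallowest library and 0.0105 CPM in the deepest, for counting error only. Ago2 itself averaged 154 ± 28.9 CPM in wild-type tumors and 240 ± 99.2 CPM in ΔAgo2 tumors (SD, n = 4), and a log2 fold change of 0.64 ± 0.30 (SE) and an edgeR adjusted p of 0.205. The Ago2 transcript was thus no lower in the knock-out group, and since a frameshift can leave the transcript in place and host cells carry it too, this does not check the labels. Of the 6 epithelial and lung carcinoma markers, Krt8 and Krt18 were present, whereas the lung lineage factor Nkx2-1 was at 0 in all 8 libraries. Sftpc was at 0 in 5 libraries. Epcam averaged 1.23 CPM in wild-type and 3.04 CPM in ΔAgo2 tumors, and Cdh1 averaged 4.21 and 11.2 CPM. Their log2 fold changes were 1.26 and 1.38, with edgeR adjusted p of 0.119 and 0.0629. None of the 6 was called.

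Of the 6 interferon-linked genes, Parp12 alone rose past the threshold in ΔAgo2 tumors, to 2.01 times its wild-type mean. Parp14, Dtx3l, Parp9 and Parp11 had positive log2 fold changes of 1.14, 0.98, 0.89 and 0.58 that did not pass, and Parp10 had a negative one of -0.52 that did not pass either. Thus 1 of 6 was called, against 3.49% of the 16061 genes tested in either direction and 1.36% in the direction of higher expression in ΔAgo2 tumors (edgeR quasi-likelihood test, Benjamini-Hochberg adjusted p under 0.05). At an unadjusted p under 0.05, 4 of the 6 passed, as did 4281 of the 16061 genes. The median log2 fold change of the 6 was 0.93, and that of all genes was 0.04. In 2 of the 6, Parp12 and Parp14, every ΔAgo2 tumor exceeded every wild-type tumor, which was the case for 8.05% of all genes. Neither of the contrast genes was called.

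**Figure D1:**
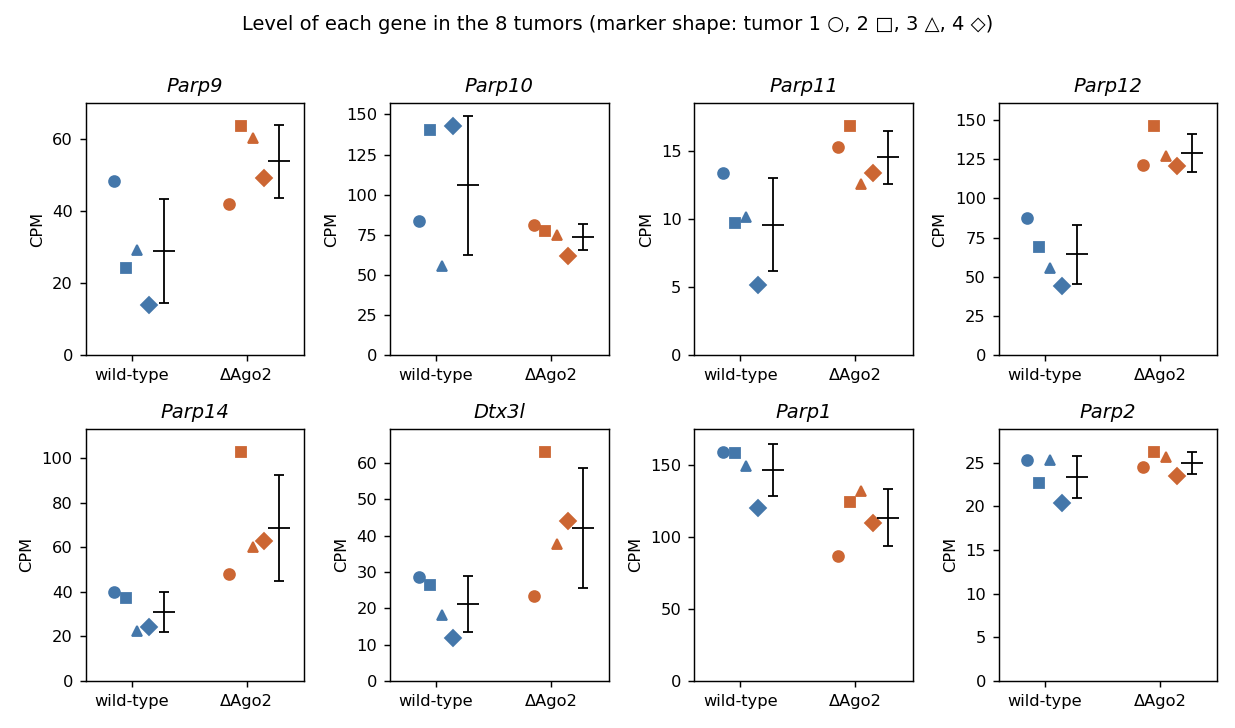
Level of each gene in CPM (y axis, from 0) in the 4 wild-type (blue) and 4 ΔAgo2 (orange) tumors, with marker shapes for tumors 1 to 4. Black lines give the mean and SD. The groups do not overlap for Parp12 and Parp14, and they overlap for the other 6 genes.

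Parp12 encodes a mono-ADP-ribosyltransferase with CCCH zinc fingers that restricts several RNA viruses. The gene lies at chr6:39086410-39118349 on the minus strand (GRCm38), in 12 exon blocks. Wild-type tumors 1 to 4 held 87.8, 69.2, 55.8 and 44.3 CPM, and ΔAgo2 tumors 1 to 4 held 121, 146, 127 and 121 CPM. The groups are apart, with a gap between wild-type tumor 1 and the lowest ΔAgo2 tumors, and the ΔAgo2 tumors lie close together. The means were 64.3 ± 18.7 and 129 ± 11.9 CPM (mean ± SD, n = 4). The log2 fold change was 1.00 ± 0.23 (SE), with an edgeR adjusted p of 0.0415. A larger log2 fold change was seen in 8.35% of all genes. The call lies near the threshold: without any 1 of wild-type tumors 2, 3 and 4 or ΔAgo2 tumors 2, 3 and 4, the edgeR adjusted p was between 0.0553 and 0.136, and the log2 fold change was between 0.86 and 1.05. With total-count scaling in place of TMM it was 1.06, with an adjusted p of 0.0567. Over all 23 alternatives the adjusted p ran from 0.00265 to 0.227, and it was under the threshold in 12 of them.

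Since Parp12 was the only member called, the 300 bases around its start site are shown, 250 before and 50 after (RefSeq on GRCm38.p6, chr6:39118300-39118599, minus strand). The window is rich in G and C, at 73.7%. It holds neither the core of the interferon-stimulated response element (ISRE, GAAANNGAAA or, on the other strand, TTTCNNTTTC), nor the gamma-activated site (GAS, TTCNNNGAA, the same on both strands), which are sequence elements known from the promoters of interferon-induced genes. Over the 32851 windows of this length in the table, 3.44% hold the ISRE core and 8.3% hold the GAS letters.
Parp12: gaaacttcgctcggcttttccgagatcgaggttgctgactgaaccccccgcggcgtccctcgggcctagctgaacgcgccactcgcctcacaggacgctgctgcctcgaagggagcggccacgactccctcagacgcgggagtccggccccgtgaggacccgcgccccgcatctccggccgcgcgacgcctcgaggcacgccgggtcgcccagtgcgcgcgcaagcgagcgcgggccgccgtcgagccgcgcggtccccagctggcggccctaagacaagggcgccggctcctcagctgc

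Parp14, a large mono-ADP-ribosyltransferase with macrodomains, which bind ADP-ribose, is encoded at chr16:35832874-35871544 on the minus strand. It was measured at 40.1, 37.2, 22.5 and 24.1 CPM in the wild-type group (tumors 1 to 4), and at 48.03, 103, 60.2 and 62.7 CPM in the ΔAgo2 group (tumors 1 to 4). The groups do not overlap, but ΔAgo2 tumor 1 is near the upper wild-type tumors and ΔAgo2 tumor 2 stands well above the rest. The means were 31.0 ± 8.96 and 68.5 ± 23.8 CPM (mean ± SD, n = 4), and the log2 fold change of 1.14 ± 0.29 (SE) was the largest of the 8 genes. The edgeR adjusted p was 0.0563, just outside the threshold. Parp14 passed in 6 of the 23 alternatives, in which the adjusted p ran from 0.00754 to 0.291. Among these, the adjusted p was 0.0486 when wild-type tumor 1 was left out and 0.0310 when ΔAgo2 tumor 1 was. Those 2 fits called 661 of 16307 and 1793 of 16301 genes, against 560 of 16061 with all 8 tumors. On the deposited TPM scale (counts per gene length, scaled to the same total in every library), the groups overlapped, with wild-type tumor 1 at 12.3 TPM and ΔAgo2 tumor 1 at 11.3 TPM.

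Parp9 and Dtx3l stand head to head on chromosome 16, next to Parp14. Parp9 is annotated at chr16:35938470-35972605 on the plus strand and Dtx3l at chr16:35926511-35939151 on the minus strand. Their exons share 458 bases on opposite strands, which is 9.40% of the exon bases of Parp9 and 8.0% of those of Dtx3l. The libraries were stranded, but the strand setting of the counting was not stated, so reads in the shared stretch may have gone to either gene. The window around the start of Dtx3l lies inside the span of Parp9, and is shown because it falls in the stretch where the 2 genes meet (RefSeq on GRCm38.p6, chr16:35938978-35939277, minus strand). It holds no match to either set of letters, and its GC content is 54.3%.
Dtx3l: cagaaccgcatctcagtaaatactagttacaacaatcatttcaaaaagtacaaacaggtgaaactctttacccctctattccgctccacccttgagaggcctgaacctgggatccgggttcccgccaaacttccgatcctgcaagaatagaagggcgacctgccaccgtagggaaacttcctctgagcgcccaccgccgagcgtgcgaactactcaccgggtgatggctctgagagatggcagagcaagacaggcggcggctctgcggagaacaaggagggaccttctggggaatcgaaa

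Parp9 encodes the macrodomain partner of the complex. Its levels were 48.4, 24.1, 29.2 and 13.9 CPM in the wild-type group (tumors 1 to 4) and 42.0, 63.7, 60.3 and 49.1 CPM in the ΔAgo2 group (tumors 1 to 4). Wild-type tumor 1 exceeded ΔAgo2 tumor 1, and the other 3 wild-type tumors lay below every ΔAgo2 tumor. The means were 28.9 ± 14.5 and 53.8 ± 10.04 CPM (mean ± SD, n = 4). This gave a log2 fold change of 0.89 ± 0.33 (SE), with an edgeR adjusted p of 0.129 and a range of 0.0444 to 0.366 over the alternatives. Its only pass was without wild-type tumor 1, at a log2 fold change of 1.26. The count behind the lowest value, that of wild-type tumor 4, was 97.

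Dtx3l encodes the RING-type ubiquitin ligase of the complex. It was measured at 28.6, 26.3, 18.1 and 11.8 CPM in the wild-type group (tumors 1 to 4), and at 23.5, 63.1, 37.7 and 44.2 CPM in the ΔAgo2 group (tumors 1 to 4). ΔAgo2 tumor 1 lay below wild-type tumors 1 and 2, whereas the other 3 ΔAgo2 tumors lay above all wild-type tumors. The means were 21.2 ± 7.73 and 42.1 ± 16.5 CPM (mean ± SD, n = 4). For Dtx3l the log2 fold change was 0.98 ± 0.34 (SE), with an edgeR adjusted p of 0.114 and a range of 0.0223 to 0.397 over the alternatives. Dtx3l passed in 2 of the 23, limma voom with quality weights and the fit without ΔAgo2 tumor 1, where the log2 fold change was 1.17 and the adjusted p 0.0466. Both settings called more genes of all kinds, 4476 of 16061 and 1793 of 16301, against 560 of 16061 in the edgeR fit of all 8 tumors.

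The balance of the Parp9 and Dtx3l transcripts was similar in both groups. The log2 ratio of their counts within a library averaged 0.39 ± 0.41 in wild-type and 0.42 ± 0.40 in ΔAgo2 tumors (SD, n = 4), and the groups overlapped. The log2 ratio of Parp14 to Dtx3l averaged 0.58 ± 0.31 and 0.73 ± 0.22 (SD, n = 4), and also overlapped. The genes on the outer sides of this cluster are Hspbap1, beside Parp14 at a gap of 4397 bases, and Kpna1, beside Parp9 at a gap of 6145 bases. Their log2 fold changes were -0.19 ± 0.21 and 0.84 ± 0.34 (SE), with edgeR adjusted p of 0.576 and 0.147. When the GC trend of each library was removed, Hspbap1 and Kpna1 were at -0.70 and 0.29. Of 24 protein-coding neighbours of the 8 genes, 18 passed the low-count filter and 0 were called.

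Parp11 encodes a mono-ADP-ribosyltransferase with a WWE domain that acts on the type I interferon receptor pathway, and it had the lowest mean TPM of the 8 genes in both groups. It lies at chr6:127446840-127494261 on the plus strand. Wild-type tumors 1 to 4 held 13.4, 9.68, 10.2 and 5.16 CPM, and ΔAgo2 tumors 1 to 4 held 15.3, 16.9, 12.6 and 13.4 CPM. Only wild-type tumor 1 reached into the range of the ΔAgo2 tumors, and the value of wild-type tumor 4 rests on 36 counts. The means were 9.60 ± 3.38 and 14.5 ± 1.93 CPM (mean ± SD, n = 4). The log2 fold change was 0.58 ± 0.28 (SE), with an edgeR adjusted p of 0.210, and it passed in 0 of the 23 alternatives, where the adjusted p ran from 0.124 to 0.429.

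RefSeq windows were matched for 5 of the 8 genes, 6 windows in all, and 1 of them held the letters searched. This was the upstream window of Parp11 (chr6:127446590-127446889, plus strand, GRCm38.p6), which is therefore printed. The ISRE core begins at position -44 from the start site as TTTCGATTTC, and the GAS letters begin at -37 as TTCTTGGAA. The matches overlap, and capitals mark the stretch that they cover together. The match describes the letters in this window and does not show that a factor binds there.
Parp11: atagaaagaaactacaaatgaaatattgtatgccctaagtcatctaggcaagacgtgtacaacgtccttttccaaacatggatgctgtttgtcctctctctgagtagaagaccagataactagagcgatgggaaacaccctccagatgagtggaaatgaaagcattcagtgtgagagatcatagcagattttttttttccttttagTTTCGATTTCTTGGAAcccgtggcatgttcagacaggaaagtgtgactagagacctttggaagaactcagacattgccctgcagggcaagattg

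Parp10 encodes a mono-ADP-ribosyltransferase with RNA recognition and ubiquitin-interaction motifs, at chr15:76231174-76243441 on the minus strand. It was measured at 83.7, 140.5, 55.8 and 143 CPM in the wild-type group (tumors 1 to 4), and at 81.1, 77.2, 74.6 and 62.0 CPM in the ΔAgo2 group (tumors 1 to 4). The ΔAgo2 tumors lay together inside the range of the wild-type tumors, where tumors 2 and 4 were high and tumor 3 low. The means were 106 ± 43.1 and 73.7 ± 8.26 CPM (mean ± SD, n = 4). This gave a log2 fold change of -0.52 ± 0.29 (SE), with an edgeR adjusted p of 0.266, and it passed in 0 of the 23 alternatives, where the adjusted p ran from 0.0812 to 0.988. Parp10 shares 205 exon bases, 4.80% of its own, with Plec on the same strand, which was measured at means of 1331 and 829.3 CPM. Reads in that stretch cannot be assigned to 1 gene by strand. The log2 fold changes of Plec and of Grina, the next gene, were -0.68 ± 0.28 and -0.79 ± 0.28 (SE), with edgeR adjusted p of 0.156 and 0.120. When the GC trend of each library was removed, Plec, Grina and Parp10 were at 0.04, -0.23 and -0.01.

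Parp1, the main DNA-break sensor of the family, was measured at 160, 158.3, 150 and 120 CPM in the wild-type group (tumors 1 to 4), and at 87.3, 124, 132 and 110 CPM in the ΔAgo2 group (tumors 1 to 4). The groups overlapped, as wild-type tumor 4 lay below ΔAgo2 tumors 2 and 3. The log2 fold change was -0.37 ± 0.20 (SE), with an edgeR adjusted p of 0.241 and a range of 0.0422 to 0.853 over the alternatives. The lowest of these came from limma voom with quality weights, at a log2 fold change of -0.40.

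Parp2, its close relative in repair, was measured at 25.3, 22.6, 25.3 and 20.4 CPM in the wild-type group (tumors 1 to 4), and at 24.5, 26.3, 25.7 and 23.5 CPM in the ΔAgo2 group (tumors 1 to 4). In proportion to their mean these values spread the least of the 8 genes, and the groups overlapped. The log2 fold change was 0.09 ± 0.18 (SE), with an edgeR adjusted p of 0.765 and a range of 0.483 to 0.944 over the alternatives. Its sign turned in 4 alternatives, among them the GC correction, where it was -0.16.

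Several of the members were high or low in the same tumors of a group. Among wild-type tumors, tumor 1 had the highest level of 5 of the 6 interferon-linked genes, and tumor 4, the shallowest library, had the lowest level of 4 of them. Among ΔAgo2 tumors, tumor 2 had the highest level of the same 5 genes, Parp9, Parp11, Parp12, Parp14 and Dtx3l. ΔAgo2 tumor 1 had the lowest level of Parp9, Parp14 and Dtx3l in its group. Parp10 followed neither order, and was highest in wild-type tumor 4 and in ΔAgo2 tumor 1.

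Markers of other cells in the tumors were read beside these levels. Ptprc, which encodes the leukocyte surface protein CD45, was measured at 33.1, 23.1, 25.8 and 13.9 CPM in the wild-type group (tumors 1 to 4) and at 35.5, 83.6, 40.9 and 49.6 CPM in the ΔAgo2 group (tumors 1 to 4). Its groups do not overlap, and it was highest in wild-type tumor 1 and ΔAgo2 tumor 2 and lowest in wild-type tumor 4 and ΔAgo2 tumor 1, as were Parp9 and Dtx3l. The log2 fold change of Ptprc was 1.12 ± 0.33 (SE), with an edgeR adjusted p of 0.0785, and it was 0.27 after the GC trend of each library was removed. Cd53, another pan-leukocyte marker, had means of 22.4 ± 18.4 and 47.6 ± 12.5 CPM, a log2 fold change of 1.07 ± 0.53 (SE) and an edgeR adjusted p of 0.220. Its highest ΔAgo2 tumor was also tumor 2. Its wild-type order differed from that of Ptprc, with 30.3, 7.29, 44.8 and 7.31 CPM in wild-type tumors 1 to 4. The other 3 pan-leukocyte markers differed in direction, with log2 fold changes of 0.51 for Cd52, -0.05 for Laptm5 and -0.87 for Coro1a. None of the 5 was called. Their sum, most of which came from Coro1a and Laptm5, ran from 462 to 907 CPM in wild-type and from 433 to 840 CPM in ΔAgo2 tumors, with its highest values in wild-type tumor 4 and ΔAgo2 tumor 1.

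None of the 5 macrophage markers was called either, and 1 of the 5 had a positive log2 fold change. Their sum ran from 952 to 1073 CPM in wild-type and from 603 to 1361 CPM in ΔAgo2 tumors. The sum of 5 T and NK cell markers was between 3.89 and 14.1 CPM and between 4.98 and 23.1 CPM. All 5 had positive log2 fold changes, from 0.01 for Cd3e to 0.90 for Ncr1, and 0 were called. The summed markers of skeletal muscle ran from 176 to 2739 CPM, highest in wild-type tumor 3, against 30.3 to 147 CPM, with all 5 lower in the mean of ΔAgo2 tumors and 0 called. Those of fibroblasts ran from 936 to 2286 CPM against 749 to 934 CPM, but the 4 markers differed in direction, with log2 fold changes of -1.30 for Col1a1, -1.22 for Col1a2, 0.16 for Dcn and 0.68 for Pdgfra, and 0 called. Those of dendritic cells were low, from 8.16 to 10.2 CPM against 5.84 to 7.39 CPM, and 0 of 4 were called. The log2 fold changes were -1.15 for Flt3, -0.51 for Xcr1, -0.03 for Siglech and 0.41 for Zbtb46. All 5 skin keratinocyte markers had positive log2 fold changes, and 1 was called as higher in ΔAgo2 tumors. Their sum ran from 10.2 to 556 CPM in wild-type and from 424 to 825 CPM in ΔAgo2 tumors. The part of these cells in the members' levels was not tested.

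**Figure D2:**
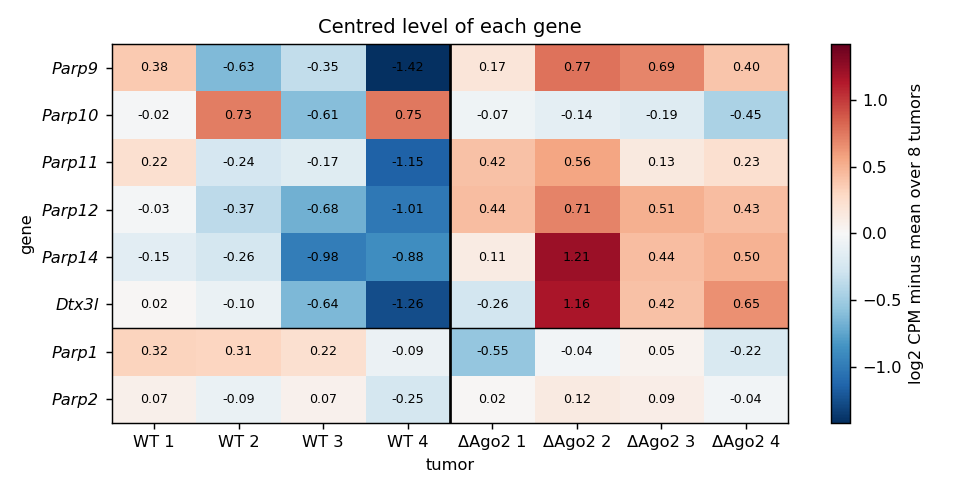
Log2 CPM of each gene (rows) in each tumor (columns) after subtraction of its mean over the 8 tumors, from blue (lower) to red (higher), with the value in each cell. Wild-type (WT) tumor 4 has the lowest values for Parp9, Parp11, Parp12 and Dtx3l, and ΔAgo2 tumor 2 the highest for 5 of the 6 interferon-linked genes.

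The distance between the patterns of any pair of genes was taken as the root mean square difference of their centred log2 CPM over the 8 libraries, in log2 units. Parp14 and Dtx3l were the closest pair, at 0.25, followed by Parp12 and Parp14, at a similar distance. Among the 13065 genes compared, 12 were nearer to Parp14 than Dtx3l was. Parp10 was at 0.87 to 1.07 from each of the other 5 interferon-linked genes, and at 0.51 from Parp1. The 3 genes nearest to Parp9 were Crybg1, Apobec1 and Ddx58, which encodes the RNA sensor RIG-I, at 0.12 to 0.18. Rasgrp1, Map3k8 and Ccdc173 were nearest to Parp14, Trim24, Kif24 and Btnl7-ps to Dtx3l, and AU020206, Ccdc173 and Gm14137 to Parp12. Umad1, Lacc1 and Sfxn4 were nearest to Parp11, and Sirt4, Rnf167 and Ccdc88b to Parp10. For Parp1 the nearest were Cwc25, Sgsh and Ogdh, and for Parp2 they were Wdr41, Rpap3 and Cyp20a1.

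Compared per length, on the TPM scale, the order of the genes differed between the groups at its top. In wild-type tumors Parp1 led with 74.6 ± 19.3 TPM, followed by Parp10 with 63.6 ± 23.5 TPM and Parp12 with 43.7 ± 16.9 TPM (SD, n = 4). The range of Parp1 overlapped with that of Parp10, and that of Parp10 with that of Parp12. Parp2, Parp9, Dtx3l, Parp14 and Parp11 followed, with means from 17.3 down to 3.75 TPM. Parp12 and Parp2 were the only neighbours in this order whose ranges were apart. In ΔAgo2 tumors Parp12 led with 101 ± 27.6 TPM, followed by Parp1 with 67.9 ± 22.1 TPM and Parp10 with 53.0 ± 10.3 TPM (SD, n = 4). Parp9, Dtx3l, Parp14 and Parp2 came next, from 35.0 down to 21.4 TPM, and Parp11 was last with 6.42 ± 1.72 TPM, apart from the range of Parp2. Within libraries, the TPM of Parp12 was below that of Parp1 in 4 of 4 wild-type tumors and above it in 4 of 4 ΔAgo2 tumors. No other gene changed its place against Parp1 in this way. On the log2(TPM + 1) scale, the median log2 fold change was 0.21 over the 15410 genes that passed the TPM filter and 0.03 over the 30111 genes of the fit with no filter.

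The log2 ratio of counts to Parp1 within a library needs no scaling between libraries. For Parp12 it averaged -1.23 ± 0.27 in wild-type and 0.20 ± 0.22 in ΔAgo2 tumors (SD, n = 4). For Parp9 the averages were -2.47 ± 0.59 and -1.08 ± 0.09, for Parp14 -2.28 ± 0.33 and -0.77 ± 0.36, for Dtx3l -2.87 ± 0.40 and -1.50 ± 0.43, and for Parp11 -4.00 ± 0.40 and -2.96 ± 0.37 (SD, n = 4). In these 5 genes every ΔAgo2 tumor lay above every wild-type tumor, whereas Parp10 overlapped, at -0.57 ± 0.75 and -0.61 ± 0.34 (SD, n = 4). The same separation was found for 27.2% of all genes and also for Parp2, at -2.65 ± 0.11 and -2.17 ± 0.23 (SD, n = 4), and the log2 fold change of Parp1 itself was negative. The differences between group means were 1.51 for Parp14, 1.43 for Parp12, 1.39 for Parp9, 1.37 for Dtx3l and 1.04 for Parp11, against 0.48 for Parp2. After the GC correction of each library they were 1.09, 1.28, 1.05, 0.92 and 0.64, against 0.13 for Parp2.

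**Figure D3:**
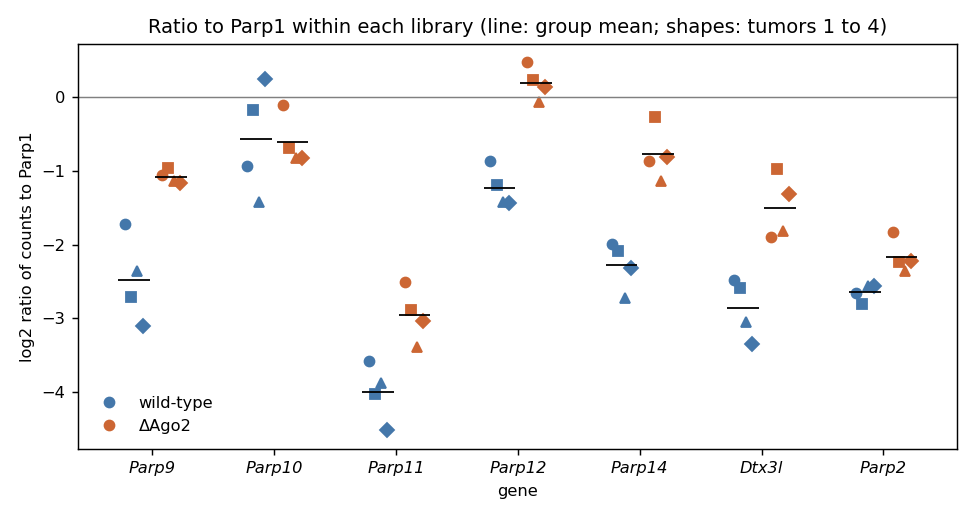
Log2 ratio of the count of each gene to that of Parp1 in the same library (y axis) for wild-type (blue) and ΔAgo2 (orange) tumors, with shapes for tumors 1 to 4 and black lines for group means. The groups are apart for every gene except Parp10, and the smallest separation of means among the others is that of Parp2, at 0.48.

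Fold changes moved with the GC content of the genes across the whole table. The Spearman correlation of log2 fold change with the GC content of the longest transcript was -0.56 across 16059 genes, which share the 8 libraries and are not independent. Genes of 44% to 48% GC had a median log2 fold change of 0.27. Parp9, Parp11, Parp14, Dtx3l and Parp2 fall in this range, with GC contents of 45.9% to 47.5%. Parp12, at 50.6% GC, falls among genes with a median of 0.05, and Parp1, at 52.7%, among genes with a median of -0.23. Parp10 is the most GC-rich of the 8, at 57.9%, and genes of 56% to 60% GC had a median of -0.48, close to its own -0.52.

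**Figure D4:**
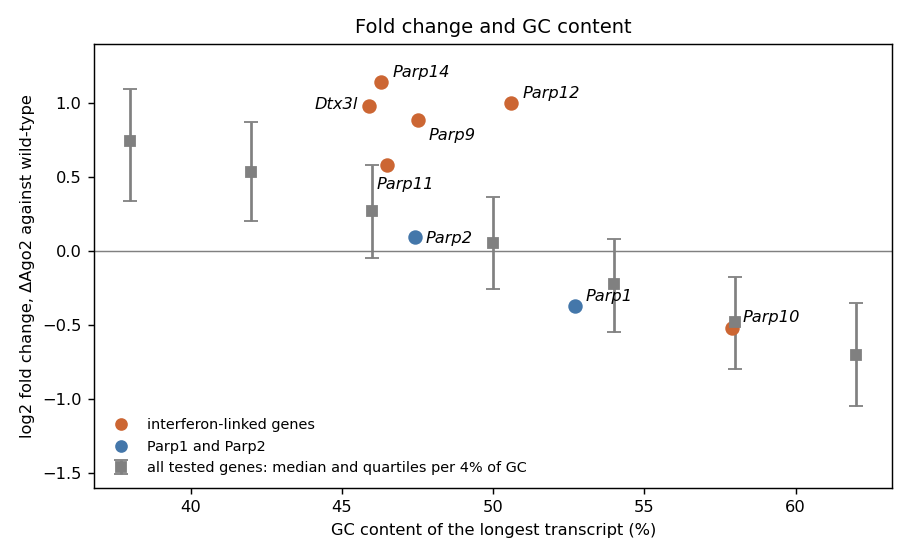
Log2 fold change (y axis, ΔAgo2 against wild-type) against GC content of the longest transcript (x axis, %), with grey squares and bars for the median and quartiles of all tested genes in steps of 4% and circles for the 8 genes. Parp12, Parp14, Dtx3l and Parp9 lie above the upper quartile of their GC range. Parp11 lies at the upper quartile of its own, at 0.58, and Parp10 near the median of its own.

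When the GC trend of each library was removed, Parp12 had a log2 fold change of 0.95, with an edgeR adjusted p of 0.0231, and remained the only member called. Those of Parp14, Parp9, Dtx3l and Parp11 were 0.78, 0.68, 0.61 and 0.31, with edgeR adjusted p of 0.123, 0.167, 0.244 and 0.426. That of Parp10 was -0.01, with an edgeR adjusted p of 0.988, and that of Parp1 was -0.28. The median of the 6 interferon-linked genes was thus 0.65 after the correction and 0.93 before it.

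**Figure D5:**
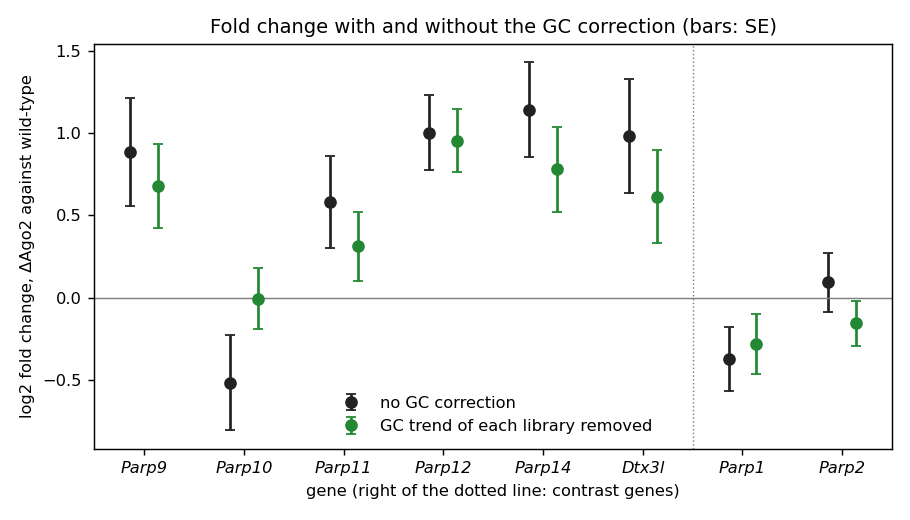
Log2 fold change (y axis) of each gene, ΔAgo2 against wild-type, without (black) and with (green) removal of the GC trend of each library, with bars for the SE. Parp12 stays near 1 in both, at 1.00 and 0.95, and Parp10 moves from -0.52 to -0.01.

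The other genes of the pathway were read from the same fit in 6 lists. Of the 9 other PARP family genes, 0 were called. The highest log2 fold changes were those of the tankyrases, enzymes that mark proteins such as axin with ADP-ribose chains, at 1.19 ± 0.36 for Tnks and 0.95 ± 0.30 for Tnks2 (SE). The lowest were those of Parp16, a mono-ADP-ribosyltransferase of the endoplasmic reticulum, at -0.37 ± 0.19, and Parp8, at -0.20 ± 0.23 (SE). Zc3hav1, the antiviral zinc finger protein also known as PARP13, was picked out after its values were seen, as the 1 gene of the 9 with higher values in every ΔAgo2 tumor, which was the case for 8.05% of all genes. Its means were 93.8 ± 18.1 and 173 ± 45.6 CPM (mean ± SD, n = 4), and its log2 fold change was 0.88 ± 0.24 (SE) with an edgeR adjusted p of 0.0666.

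Of the enzymes that take ADP-ribose off again, 8 of 9 passed the filter and 0 were called. Parg, which cuts the chains, had a log2 fold change of 0.68 ± 0.28 and Oard1, which removes the last unit, one of 0.19 ± 0.22 (SE). Macrod1 and Adprhl2, hydrolases of single units, had the lowest, at -1.21 ± 0.37 and -0.82 ± 0.38 (SE). Of the other deltex family genes, relatives of Dtx3l, 3 of 4 passed the filter and 0 were called, with log2 fold changes of 0.19 ± 0.18 for Dtx4, -0.60 ± 0.27 for Dtx2 and -1.07 ± 0.32 for Dtx3 (SE).

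Of the 13 genes of NAD supply and use, 12 passed the filter and 5 of these had positive log2 fold changes. In ΔAgo2 tumors 0 were called as higher and 2 as lower, against 1.36% and 2.12% of all genes tested. Sarm1, an NAD hydrolase known from axon degeneration, averaged 5.61 ± 2.09 CPM in wild-type and 0.746 ± 0.109 CPM in ΔAgo2 tumors (SD, n = 4), and a log2 fold change of -2.89 ± 0.36 (SE) and an edgeR adjusted p of 0.00298. Nmnat3, an enzyme of NAD synthesis, averaged 13.7 ± 2.34 and 7.32 ± 0.764 CPM (mean ± SD, n = 4), and its log2 fold change was -0.90 ± 0.22 (SE) with an edgeR adjusted p of 0.0495. After the GC correction their log2 fold changes were -2.41 and -0.81. The median of the 12 genes was -0.11.

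Of the 14 genes of the receptor, kinase and transcription factor arm that acts below interferon receptors, 0 were called, 9 had positive log2 fold changes, and the median was 0.40. Usp18, a protease that also damps the type I interferon receptor, had the highest, at 1.43 ± 0.38 (SE), with an edgeR adjusted p of 0.0625. The lowest were the feedback inhibitors Socs3, at -0.80 ± 0.23, and Socs1, at -0.62 ± 0.40 (SE). Of the 9 DNA repair partners of PARP1 and PARP2, 0 were called and the median was 0.04. Polb, a base-excision repair polymerase, and Aplf, a histone chaperone of break repair, had the highest log2 fold changes, at 0.25 ± 0.35 and 0.19 ± 0.19 (SE). Xrcc1, the scaffold recruited by ADP-ribose chains, was at -0.91 ± 0.28 (SE).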

How the data were processed

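Bulk RNA-seq was analysed from 8 tumors, grouped by their titles. The authors deposited raw gene counts, whole numbers with no normalization, and TPM values. For bulk RNA-seq of cultured cells the methods name mm10 and featureCounts, which was taken to hold for the tumors as well. The annotation release, strand setting and treatment of multimapping reads were not given in the sources used here. Identifiers were matched to GENCODE M21, at 99.29% of 55487.

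Counts were filtered with filterByExpr, scaled by TMM and compared with the edgeR 4.0.16 quasi-likelihood test (R 4.3.3), without covariates. P-values were adjusted by Benjamini-Hochberg across 16061 tested genes and called at 0.05. The test sets the difference between groups against the spread between tumors. As the study names 1 engrafted clone, the p-values do not cover the spread between clones. CPM are per TMM-scaled total. Log2 CPM used a prior count of 2, and ratios of counts a pseudocount of 0.5. Nearest patterns were sought among genes with a mean of at least 1 CPM. GC content was that of the longest transcript, and trends were fitted on genes averaging 50 counts or more. Alternatives were other scalings, DESeq2 1.42.0, limma 3.58.1 (voom with quality weights, or log2(TPM + 1) and log2(TPM + 0.1), keeping genes of 0.5 TPM in 4 libraries or all), a minimum of 10 counts per library or no count filter, thinning to 7903288 counts, GC and length corrections, a replicate block and leaving out each tumor. The procedure was tested on simulated data.

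All 8 genes were named. Genes of 6 lists were named where they passed, or as the 2 highest and 2 lowest where none did, with the 3 nearest patterns per gene and selected genome neighbours. Some genes that this rule names are not reported here. The genes and lists were chosen with earlier results of these data known.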

Additional observations from a re-analysis of the deposited data

How the results depend on the processing

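The direction of Parp9, Parp11, Parp12, Parp14 and Dtx3l was positive, and that of Parp1 negative, under all 23 alternatives. Parp12 ran from 0.79 to 1.26 on the log2 scale and passed in 12 of them. It did not pass with total-count scaling (1.06), with the replicate block (1.05), with limma on log2(TPM + 1), filtered or not (1.24 each), or on log2(TPM + 0.1) (1.26), nor without 6 of the tumors in turn (0.86 to 1.05). Parp14 passed with the DESeq2 Wald test (1.14), limma voom (1.00), no count filter (1.2) and the length correction (0.84), and after removal of wild-type tumor 1 or ΔAgo2 tumor 1 (1.29 and 1.27). Dtx3l passed with limma voom (0.89) and without ΔAgo2 tumor 1 (1.17, from a range of 0.71 to 1.17 without each tumor), Parp9 without wild-type tumor 1 (1.26, from 0.67 to 1.26), and Parp1 with limma voom (-0.40). Parp2 turned negative with limma voom (-0.03), thinning (-0.04), the GC correction (-0.16) and the replicate block with the GC correction (-0.16), and Parp10 turned positive with the last of these (0.01). The cause was not tested.

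Of the 6 interferon-linked genes, 1 was called in the report. The number was 0 with total-count scaling, the replicate block and the 3 limma fits on TPM. It was 2 with the DESeq2 Wald test, no count filter and the length correction, and 1 with DESeq2 size factors. Limma voom gave 3 and also called 1 of the 2 contrast genes, and leaving out tumors gave 0 to 3. The number of all genes called, 560 in the report, was 566 with DESeq2 size factors and 2220 with the DESeq2 Wald test. It was 4476 with limma voom, 983 with no count filter and 1219 with the length correction. With the replicate block it was 70, and with that block and the GC correction 311. Limma gave 145, 141 and 139 on log2(TPM + 1), on log2(TPM + 0.1) and without a filter. Leaving out tumors gave 88 to 1793.

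The deviations of same-numbered tumors from their group means had correlations of -0.275, 0.117, -0.0672 and -0.403. These 4 values cannot decide whether same-numbered tumors shared a step of the work, and the titles state no pairing. The replicate block is therefore shown as an alternative, in which Parp12 had an edgeR adjusted p of 0.124 and 70 genes were called. The difference in log2 ratio to Parp1 after the GC correction was 0.64 for Parp11, 1.09 for Parp14, 0.92 for Dtx3l and 0.13 for Parp2. With all libraries thinned to the depth of wild-type tumor 4, Parp11, which rests on few counts there, had a log2 fold change of 0.53.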
